A study of Mus musculus with 12 samples.

Results

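Kidneys of untreated mice lacking Aim2 were compared with kidneys of untreated wild-type mice across a targeted panel of 770 genes, of which 750 were endogenous and 20 were housekeeping genes. All 770 panel genes were taken, and the samples were chosen by label: 3 Aim2 knockout controls (KO control) and 3 wild-type controls (WT control), 6 of the 12 kidneys in the series. All were female and 8 to 10 weeks old; the knockouts are described as B6 animals and the wild types as F1 littermates, and the untreated animals carry no day. The other 6 kidneys, 3 of each genotype, came from animals given nephrotoxic serum, an antibody preparation that induces glomerulonephritis, and were taken at day 9. They entered the fit to help estimate the spread and are not described here. The question put by the design is the baseline: whether the genotypes differ before any serum is given. Aim2 itself had no row in the values used here. The sources used here give no further detail of the knockout allele or of the strain background.

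Aim2 is a cytosolic protein that binds double-stranded DNA and assembles an inflammasome, a complex in which caspase-1 is activated and the precursors of the cytokines IL-1beta and IL-18 are cut to their active forms. It belongs to a family of interferon-inducible DNA-binding proteins (the Ifi200 family), whose genes lie together on mouse chromosome 1. A healthy kidney consists mostly of tubule cells, which carry out reabsorption, with vessels, glomeruli and a resident population of macrophages and dendritic cells that present antigen on MHC class II. Whole-kidney RNA mixes all of these, so fewer cells of a type and less RNA per cell cannot be told apart.

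The 6 samples were alike in overall signal but not in pattern, and the wild-type samples stood further from each other than the knockout samples did. The summed signal of the panel genes was 635517 to 689245 per sample after the authors' scaling, which is not a depth, and 111 to 140 of 770 genes lay at the background floor, the geometric mean of a sample's negative control probes. Across the 677 genes with enough signal to be tested, the knockout pairs had Pearson correlations of 0.987 to 0.990 on the log2 scale, and 15 to 18 genes were more than 2-fold apart. The wild-type pairs had 0.950 (WT control 1 with 2), 0.978 (1 with 3) and 0.979 (2 with 3), with 102, 42 and 52 genes more than 2-fold apart. These correlations are over genes, which share probes and scaling, and serve as a description.

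WT control 2 lay closer to the knockouts than to its own group. Its correlations with KO controls 1, 2 and 3 were 0.988, 0.989 and 0.994, and only 12, 14 and 2 genes differed by more than 2-fold. It fell within the knockout range in 403 of 677 genes and lay nearer the knockout mean than the mean of the other wild types in 494. The corresponding counts for WT control 1 were 174 and 246, and for WT control 3 they were 224 and 257. WT control 1 stood apart the other way, as the highest of the 6 samples in 158 genes and the lowest in 221. Nothing in the labels sets either sample apart, and the cause was not tested. Whether the genotype label of WT control 2 is right was not tested either, since the values used here hold no row for Aim2. The wild-type means and the count of calls take that label as given. Log2 differences without WT control 1 or 2 are given beside most of the leading results and some others, but not for every gene.

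**Figure D1:**
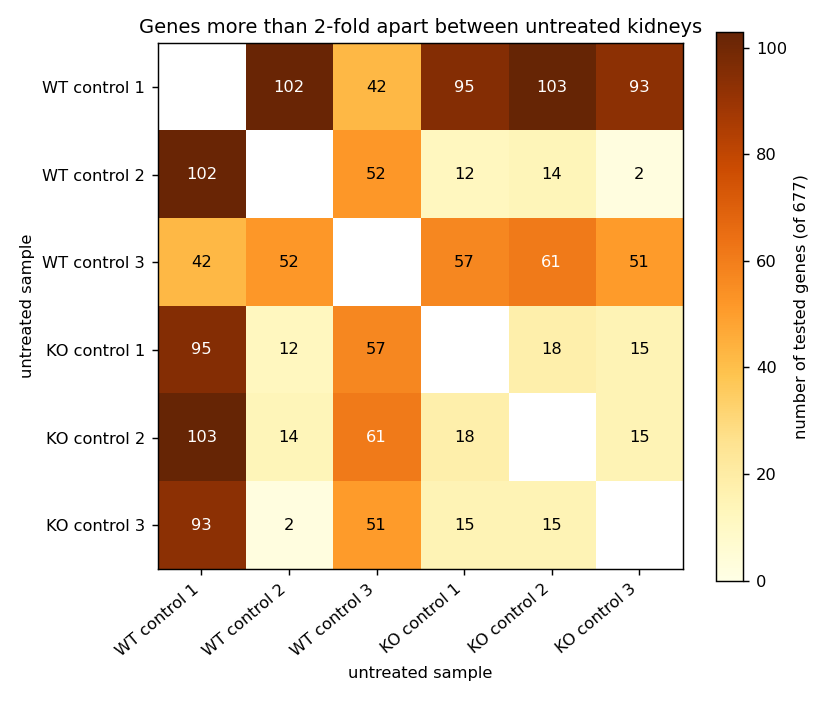
Each cell gives, for a pair of untreated kidneys, the number of the 677 tested genes whose signal differs by more than 2-fold. The pairs of WT control 2 with the 3 knockouts hold 2 to 14 such genes, and the pair of WT control 1 with WT control 2 holds 102.

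No gene passed the test between untreated knockout and wild-type kidneys. With limma on log2(signal + 1), 0 of 677 genes (0%) had a Benjamini-Hochberg adjusted p under 0.05 in either direction, and the smallest adjusted p was 0.575. At an unadjusted p under 0.05 there were 57 genes (8.42%), 38 with a higher and 19 with a lower mean in the knockout. The 3 knockout values lay entirely above or below the 3 wild-type values in 79 genes (11.7%), above in 48 (7.09%) and below in 31 (4.58%), and 25 genes met both descriptions. The median log2 difference (knockout minus wild type) was 0.06 over all tested genes, 393 being higher and 284 lower.

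The width of the intervals shows what such a comparison could have missed. The median SE of a log2 difference was 0.27, and the 95% interval reached 0.58 to either side at the median. In 461 genes (68.1%) the whole interval lay inside a 2-fold difference in either direction. For the other genes a 2-fold difference was within the interval, so a missed threshold does not show equal levels. In a fit of only the 576 genes above the floor in all 6 kidneys, 401 had an interval inside 2-fold. For a gene at the floor, a narrow interval does not show equal levels either. Fitted differences over 2-fold were found in 29 genes, 15 higher and 14 lower. The call depended on a single kidney: without WT control 2, 22 genes passed (14 higher, 8 lower, smallest adjusted p = 0.0112, limma), whereas without WT control 1 the smallest adjusted p was 0.992 and without WT control 3 it was 0.971.

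**Figure D2:**
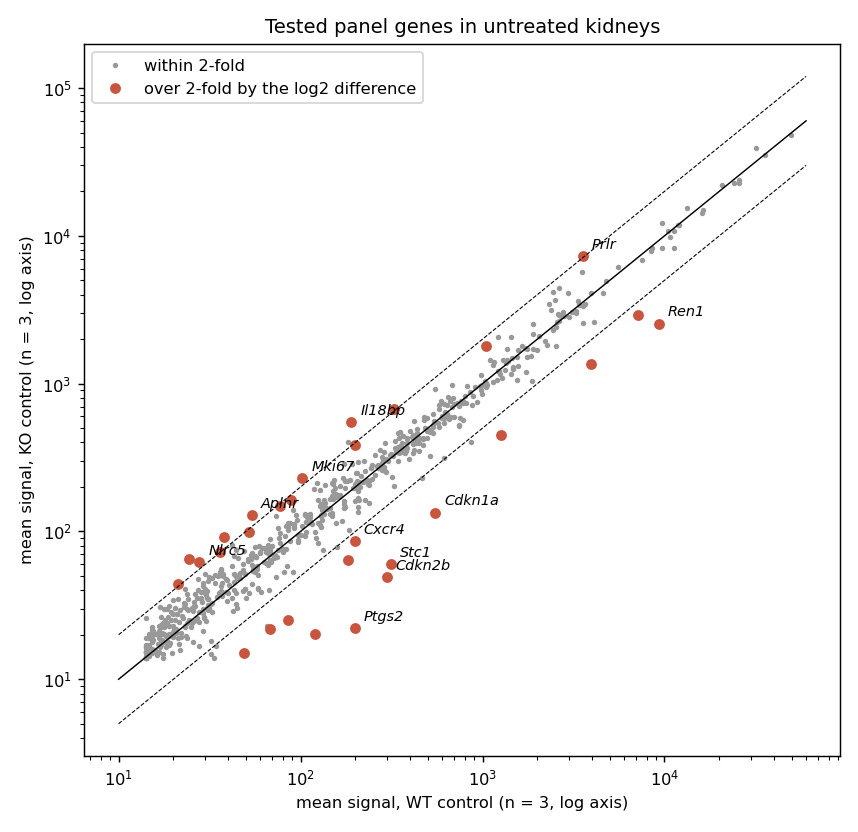
Mean signal of each of the 677 tested genes in WT control (x axis) and KO control (y axis), both on log axes, with a solid line at equal levels and dashed lines at a 2-fold difference. Red points mark the 29 genes with a fitted log2 difference over 1 in either direction, among them Il18bp above the lines and Ren1 below them.

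Among the genes higher in every knockout than in any wild type, the smallest p belonged to Il18bp, which encodes the secreted protein that binds and neutralises IL-18. Its signal was 116, 319 and 136 in WT controls 1, 2 and 3, and 723, 459 and 475 in KO controls 1, 2 and 3. The groups did not overlap, with WT control 2 the nearest wild type. The mean was 190 ± 112 in wild type and 552 ± 148 in knockout (SD, n = 3 each), a log2 difference of 1.65 (SE 0.43, 95% interval 0.71 to 2.59, limma unadjusted p = 0.00243, adjusted p = 0.575). Without WT control 2 the log2 difference was 2.10 (adjusted p = 0.0166), and without WT control 1 it was 1.37 (adjusted p = 0.992).

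Slamf7, a self-binding receptor of natural killer cells, plasma cells and macrophages, followed. Its signal was 22.0, 55.0 and 31.4 in the wild types and 63.5, 77.9 and 74.9 in the knockouts. All knockouts lay above all wild types, at a log2 difference of 1.07 (SE 0.31, adjusted p = 0.575). This too passed without WT control 2 (1.42, adjusted p = 0.0166), but the difference was 0.77 without WT control 1 (adjusted p = 0.992). Nlrc5, the transactivator of MHC class I genes, had 17.2, 33.8 and 32.5 in the wild types and 70.1, 47.6 and 67.6 in the knockouts. The log2 difference was 1.16 (SE 0.36, adjusted p = 0.575), and without WT control 2 it was 1.33 (adjusted p = 0.107). Without WT control 1 it was 0.86 (adjusted p = 0.992). Both genes are close to the floor of 12.4 to 15.1, where the log2 scale understates differences.

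Further genes without overlap had smaller or less even differences. A2m, a broad protease inhibitor of the alpha-macroglobulin family, had 43.0, 41.5 and 29.3 in the wild types against 73.4, 114 and 88.4 in the knockouts, a log2 difference of 1.25. Here WT control 2 sat with its own group, and the difference was 1.32 without it. Itga6, the alpha 6 chain of laminin-binding integrins, had 885, 1557 and 1220 against 2528, 1996 and 1667 (0.77). WT control 2 was the wild type nearest to the knockouts. Il7r, the receptor chain for the lymphocyte survival factor IL-7, differed by 0.71, Prdm1, a repressor that drives plasma cell differentiation, by 0.66, and Runx3, a transcription factor of cytotoxic lymphocytes, by 0.63. Stat4, which carries IL-12 signals, was at the floor in all 3 wild types and at 25.2, 36.8 and 15.6 in the knockouts (0.76, and 0.47 without KO control 2). Ngfr, the low-affinity neurotrophin receptor, differed by 1.14, but KO control 1 had 122 and the other knockouts 35.7 and 37.4, and the difference was 0.57 without KO control 1. Col17a1, a transmembrane collagen of hemidesmosomes, differed by 1.06 and Twist2, a mesenchymal transcription factor, by 0.62. All of these had an adjusted p of 0.575.

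The lower genes included products of specialised kidney cells. Ren1 encodes renin, the protease that juxtaglomerular cells release to start the angiotensin cascade. Its signal was 9182, 4074 and 14683 in the wild types and 3256, 1525 and 2864 in the knockouts. The groups did not overlap, though the wild-type values spanned more than the distance between the groups. The mean was 9313 ± 5310 against 2548 ± 908 (SD, n = 3 each), a log2 difference of -1.76 (SE 0.58, 95% interval -3.02 to -0.49, unadjusted p = 0.0105, adjusted p = 0.575). Without WT control 2 it was -2.26 (adjusted p = 0.0641) and without WT control 3 it was -1.34. Some mouse strains carry a near-identical second renin gene, Ren2, which a probe for Ren1 might also read, so this level is uncertain.

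Sgk1, a kinase induced by aldosterone that raises sodium uptake in the distal nephron, had 12825, 4308 and 4289 in the wild types and 3031, 2428 and 3218 in the knockouts. No values overlapped, but WT control 1 was far above all others. The log2 difference was -1.11 (SE 0.55, adjusted p = 0.618), and without WT control 1 it was -0.58. Stc1, a secreted glycoprotein linked to calcium and phosphate handling, had 327, 69.4 and 540 against 50.4, 66.0 and 64.5. WT control 2 lay just above the highest knockout. The log2 difference was -1.93 (SE 0.62, adjusted p = 0.575), and -2.79 without WT control 2 (adjusted p = 0.0112). It was -1.68 without WT control 1 (adjusted p = 0.992) and -1.32 without WT control 3 (adjusted p = 0.971). Cxcr4, the receptor of the chemokine Cxcl12, had the same arrangement, with 224, 95.5 and 276 against 75.5, 88.7 and 93.6. Its log2 difference was -1.07 (SE 0.33, adjusted p = 0.575), and -1.53 without WT control 2 (adjusted p = 0.0112). It was -0.918 without WT control 1 (adjusted p = 0.992) and -0.765 without WT control 3 (adjusted p = 0.971).

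Smaller differences were seen in several signalling genes whose groups did not overlap. Mxi1, a Max-binding antagonist of Myc, had 2132, 1231 and 1853 in the wild types and 1176, 1190 and 1213 in the knockouts, a log2 difference of -0.51. The knockout values were nearly equal, and WT control 2 lay close to them. The difference was -0.74 without WT control 2 (adjusted p = 0.0202) and -0.34 without WT control 1 (adjusted p = 0.992). Cntfr, the receptor chain for ciliary neurotrophic factor, had 67.8, 77.2 and 74.4 against 46.0, 41.1 and 61.3 (-0.57), and Fstl3, which binds and blocks activin, had 167, 117 and 115 against 79.9, 51.9 and 91.5 (-0.85). In these last genes WT control 2 sat with the other wild types. Cd47, the surface signal that restrains phagocytosis, differed by -0.30 and Ccne1, cyclin E1, by -0.70 (adjusted p = 0.575 for both). Mtor, the growth-regulating kinase, differed by -0.48 (adjusted p = 0.606) and Hk1, a hexokinase, by -0.47 (adjusted p = 0.608). Without WT control 3 the difference of Mtor was -0.30, and without WT control 1 that of Hk1 was -0.31. Ccne1 had low signal, and its difference was -0.496 with 10 in place of 1 added to the signal.

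**Figure D3:**
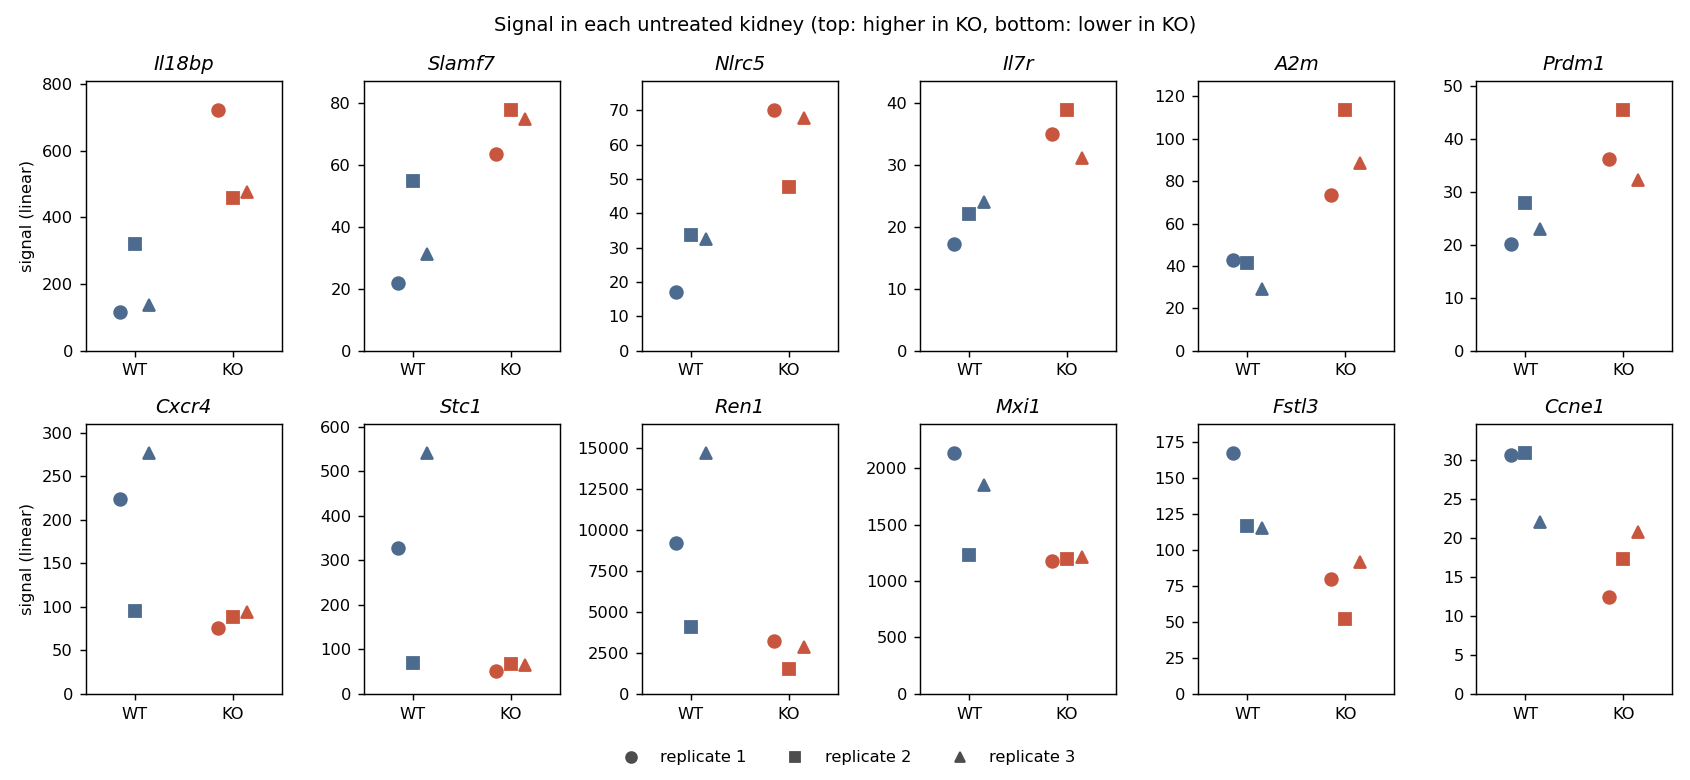
Signal (linear axis from 0) in each of the 3 WT and 3 KO controls, with the replicate number as the marker shape, for 6 genes higher (top) and 6 lower (bottom) in the knockout without overlap. WT control 2, the blue square, lies close to the knockouts for Cxcr4, Stc1 and Mxi1, and with the other wild types for A2m, Fstl3 and Ccne1.

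Ptgs2, Cdkn2b and Cdkn1a had large fitted differences and a very high WT control 1. Ptgs2, the inducible cyclooxygenase that makes prostaglandins and is found in the macula densa, had 470, 29.9 and 95.3 in the wild types and 31.8, 16.2 and 18.7 in the knockouts. WT control 2 lay inside the knockout range. The log2 difference was -2.33 (SE 0.74, adjusted p = 0.575), -1.29 without WT control 1 and -3.25 without WT control 2 (adjusted p = 0.0159). The cell cycle inhibitors Cdkn1a (p21) and Cdkn2b (p15) had the same order of the 3 wild types. Cdkn1a had 1159, 122 and 371 in the wild types and 132, 163 and 106 in the knockouts, at -1.50 overall and -0.69 without WT control 1. Cdkn2b had 708, 39.5 and 147 against 59.1, 60.6 and 27.0, at -1.78 overall and -0.72 without WT control 1. In both, WT control 2 overlapped with the knockouts and WT controls 1 and 3 lay above them.

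Lamb3, a chain of laminin-332, was seen mainly in WT control 1, at 324 against 14.2 to 26.0 in the other 5 kidneys, and its log2 difference of -1.25 turned to 0.11 without that sample. Mmp7, a protease of injured tubules, had 73.6 in WT control 1 and was at the floor in the other 5, so its difference of -0.76 became 0.03. The neutrophil chemokine Cxcl1 had 115 in WT control 1 and at most 18.4 elsewhere. These differences rest on 1 kidney.

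In the 22 genes that passed without WT control 2, that sample lay nearer the knockouts, which follows from how they were chosen. The 14 with a higher knockout mean were Il18bp, Slamf7, Cxcl14, Sfrp1, Aplnr, Col6a3, Ccnd1, Birc5, Mki67, H2-Aa, H2-Ab1, H2-Eb1, Gimap4 and Tbxas1. The 8 with a lower mean were Cxcr4, Stc1, Cdkn1a, Ptgs2, F2rl1, Mxi1, Cdkn2b and Cebpb. Aplnr, the apelin receptor of endothelium, was at the floor in WT control 1, at 34.6 in WT control 3 and at 112 in WT control 2, against 140, 143 and 102 in the knockouts. Without WT control 1, its log2 difference moved from 1.67 to 1.01. Cxcl14, a chemokine of epithelia, had 494, 2038 and 616 against 2023, 1764 and 1572 (1.06, and 0.67 without WT control 1). Col6a3, a chain of collagen VI, had 108, 347 and 145 against 460, 314 and 386. In these 3, WT controls 1 and 3 stood below every knockout and WT control 2 did not. Leaving out a sample in this way was done for every sample, and only this removal gave calls.

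**Figure D4:**
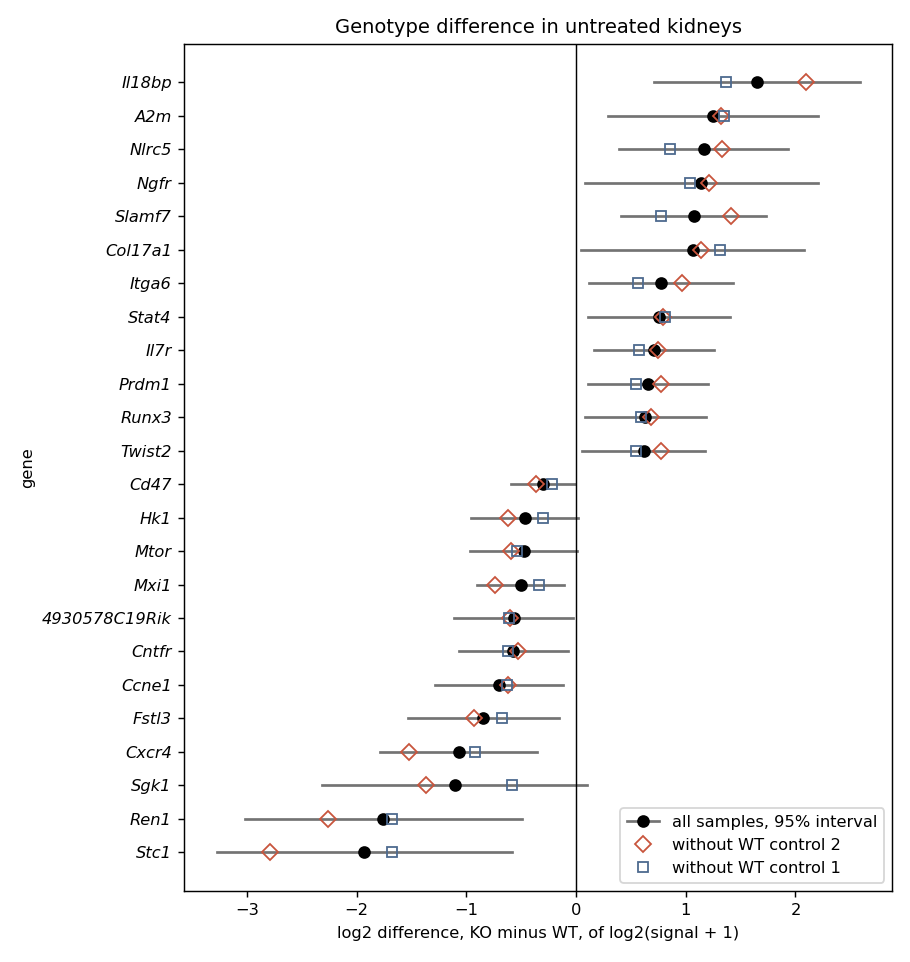
Log2 difference (KO control minus WT control) of the 24 non-overlapping genes with the smallest p, with all samples (black, with the 95% interval), without WT control 2 (diamonds) and without WT control 1 (squares). For Stc1, Cxcr4, Slamf7 and Il18bp the diamond lies further from 0 and the square nearer to it than the black point.

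MHC class II presents peptides to CD4 T cells, and the list of its genes used here also holds the costimulatory ligand Cd86. Of the 11 tested members of the list, 10 had higher knockout means, against 393 of 677 over all genes. Their median log2 difference was 0.43, against 0.06 over all genes. None passed the test, and 4 of 11 had an unadjusted p under 0.05, against 8.42% of all genes. For 1 of 11, the costimulatory ligand Cd86, the groups did not overlap, which is near the 11.7% over all genes. H2-Aa, the alpha chain of the I-A molecule, had 1188, 4087 and 2022 in the wild types and 4521, 3634 and 4436 in the knockouts. H2-Ab1, its beta chain, had 1374, 4352 and 2132 against 4991, 3669 and 4573. H2-Eb1, the beta chain of I-E, had 264, 910 and 476 against 930, 815 and 1032. In all 3 genes WT control 2 reached the knockout levels, and WT controls 1 and 3 were below every knockout.

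The log2 differences were 0.96, 0.91 and 0.92 (SE 0.37, 0.37 and 0.38, adjusted p = 0.575), and 1.43, 1.35 and 1.38 without WT control 2 (adjusted p = 0.0209, 0.0278 and 0.0309). Without WT control 1 they were 0.54, 0.52 and 0.48, and no gene passed. Cd74, the invariant chain that escorts class II through the cell, had 2124, 5347 and 3072 against 6037, 4858 and 6075 (log2 difference 0.78, and 0.47 without WT control 1). The peptide-loading subunits H2-DMa and H2-DMb1 differed by 0.38 and 0.43, and by 0.25 and 0.21 without WT control 1. Relative to the wild-type mean, the list's average log2 level was -0.39, 0.50 and -0.11 in the wild types and 0.61, 0.41 and 0.57 in the knockouts. Its median difference was 0.30 to 0.70 when each sample was left out in turn. Signal shared between related H2 genes was not tested for.

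Class II genes are controlled together through a shared promoter module, whose Y box is read by the factor NF-Y. The 100 bases before the start of H2-Aa and H2-Eb1 are shown because their values had nearly the same order across the 6 kidneys. H2-Ab1 had the same order as H2-Aa, but no promoter sequence was found for it. The sequences shown are from RefSeq (GRCm38.p6), at chr17:34287824-34287923 on the minus strand for H2-Aa and chr17:34305767-34305866 on the plus strand for H2-Eb1. Capitals mark the letters CTGATTGG, the Y box with its inverted CCAAT, beginning 51 bases before the start of H2-Aa and 62 before that of H2-Eb1.
H2-Aa: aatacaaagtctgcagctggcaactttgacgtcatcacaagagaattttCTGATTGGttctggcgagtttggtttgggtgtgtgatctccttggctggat
H2-Eb1: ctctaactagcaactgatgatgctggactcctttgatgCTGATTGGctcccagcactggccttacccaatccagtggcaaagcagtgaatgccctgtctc
The same letters, on either strand (CCAATCAG on the other), were found in the same window of 826 of 32851 promoters (2.51%). A match is a description of the letters and not evidence of binding.

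The DNA sensing and inflammasome genes around Aim2 itself differed among themselves. The 95% interval lay inside a 2-fold difference for 5 of 7, against 68.1% of all genes, but not for Nlrc5 and Casp1. Of 7 tested, 4 were higher and 3 lower, and the median log2 difference was 0.03. In 1 of 7, Nlrc5, the unadjusted p was under 0.05, against 8.42% of all genes. Irf3, which carries the signal of DNA sensors to interferon genes, had 691, 750 and 793 in the wild types and 752, 670 and 706 in the knockouts, a log2 difference of -0.07 (95% interval -0.35 to 0.21). Casp8, an initiator caspase, differed by 0.03 (-0.28 to 0.34), and Nlrp3, the sensor of another inflammasome, by -0.09 (-0.57 to 0.40). For these 3 the intervals lay inside a 2-fold difference.

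Casp1, the protease of the inflammasome, had 22.9, 47.3 and 31.4 in the wild types and 52.6, 54.1 and 45.8 in the knockouts. WT control 2 overlapped with the knockouts, and the log2 difference was 0.63 (95% interval -0.07 to 1.32, adjusted p = 0.618), and 0.39 without WT control 1. The DNA sensor cGAS (Mb21d1 on the panel) was at the floor in all 3 wild types and 20.8 at most in the knockouts. Its adaptor STING (Tmem173) had 69.7, 52.1 and 39.8 against 44.9, 39.0 and 48.9 (-0.25). Neither difference was larger than the spread between samples.

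On the IL-1 and IL-18 axis, 1 of 8 tested genes, Il18bp, had an unadjusted p under 0.05, against 8.42% of all genes. Of the 8, 4 were higher and 4 lower, with a median log2 difference of -0.02. Il18, the cytokine that Il18bp binds, had 60.2, 77.2 and 64.9 in the wild types and 69.0, 77.9 and 74.9 in the knockouts, a log2 difference of 0.14 (95% interval -0.32 to 0.59). Il18r1, a chain of its receptor, had 78.3 in WT control 1 and 21.8 to 37.9 in the other 5 kidneys. Il1b was 25.8 to 33.8 in the wild types and 23.9 to 61.3 in the knockouts (0.53, interval -0.25 to 1.30). Il1rn, the natural IL-1 receptor antagonist, reached 20.9 at most, and Il1a 15.1, both close to the floor. Il33, an alarmin of the IL-1 family, and Myd88, the adaptor of these receptors, differed by -0.18 each.

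A chosen list of immune genes that lie around Aim2 on chromosome 1 had a median log2 difference of 0.48. In it 8 of 9 tested genes were higher in the knockout, against 393 of 677 over all genes. The median over all genes was 0.06, and the list's median was 0.26 to 0.73 when each sample was left out in turn. An unadjusted p under 0.05 was found in 3 of 9 genes, against 8.42% of all genes. Besides Slamf7 these were Ifi203, a member of the Ifi200 family, and Fcgr2b, the inhibitory IgG receptor. Ifi203 had 117, 230 and 176 in the wild types and 337, 292 and 223 in the knockouts, a log2 difference of 0.73 (SE 0.27, adjusted p = 0.575) and of 0.48 without WT control 1. WT control 2 overlapped with KO control 3. Fcgr2b had 927, 1925 and 1432 against 2073, 2292 and 1841 (0.59, and 0.31 without WT control 1). Fcgr4, an activating IgG receptor, differed by 0.48 and Cd48, a ligand of Slam family receptors, by 0.62, both 0.26 without WT control 1, while Fcgr3, the neighbouring low-affinity receptor, differed by -0.18 and Cd84 by 0.05. The list's mean log2 level was -0.29, 0.27 and 0.02 in the wild types and 0.48, 0.40 and 0.43 in the knockouts. The list leaves out other panel genes nearby, so its median is not that of the region. With each sample left out in turn, Exo1 differed by -0.10 to 0.35, Cd247 by -0.35 to 0.07 and Sele by -0.56 to 0.01. Olfml2b differed by 0.16 to 0.68 and Xcl1 by 0.17 to 0.43. Signal shared between relatives in the Fcgr, Ifi200 and Slam families was not tested for.

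In the macrophage list 16 of 18 tested genes had a higher knockout mean, against 393 of 677 over all genes, and 3 of 18 had an unadjusted p under 0.05, against 8.42%. The median log2 difference was 0.25, and 0.09 with quantile normalization. The 3 B cell genes had a median of -0.15 and the 6 neutrophil genes one of -0.11, and both turned positive when some single sample was left out (up to 0.10 and 0.28). Ccr2, the monocyte receptor for Ccl2, had 40.1, 157 and 70.2 in the wild types and 161, 170 and 158 in the knockouts (1.08, adjusted p = 0.581, and 0.63 without WT control 1). Cx3cr1, the fractalkine receptor of kidney macrophages, had 39.2, 105 and 86.9 against 176, 119 and 153 (1.04, adjusted p = 0.581, and 0.62 without WT control 1). Neither overlapped, and WT control 2 was the nearest wild type in both. WT control 1 was the lowest of the 6 in both. The summed signal of 8 macrophage markers (Cd68, Csf1r, Adgre1, Itgam, Mrc1, Cd163, Cx3cr1, Cd14) was 935 to 1041 in the wild types and 1037 to 1176 in the knockouts. The part of macrophage number in the class II difference was not tested.

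Lymphocyte markers were near the floor in both genotypes. In the T cell list 15 of 18 tested genes were higher, against 393 of 677 over all genes, and 0 of 18 had an unadjusted p under 0.05. The median log2 difference was 0.30, but 0.13 with no filter on low values and -0.345 with a filter of signal 50 in 6 samples. Of the 25 genes of this list on the panel, 8 were above the floor in all 6 kidneys. The 9 tested genes of the natural killer and cytotoxic list were all higher, against 393 of 677 over all genes. Their median was 0.30, and 0.16 to 0.54 when each sample was left out in turn, and that of the list was 0.163 with no filter on low values. An unadjusted p under 0.05 was found in 2 of them, against 8.42% of all genes. They were Gzma, a granule protease, at 13.6 to 22.2 in the wild types and 20.6 to 42.7 in the knockouts, and Ncr1, the receptor NKp46, at 12.4 to 25.1 against 19.8 to 35.0. Such values are close to the floor, and of the 14 genes of this list on the panel, 0 were above it in all 6 kidneys. The summed markers were 81.4 to 123 against 115 to 126 for T cells (6 genes) and 82.3 to 131 against 130 to 150 for natural killer cells (6 genes, Prf1 at the floor throughout). For B cells (5 genes, Cd79a and Blk at the floor throughout) they were 96.9 to 118 against 103 to 118. For neutrophils (5 genes, Ly6g at the floor throughout) they were 94.3 to 181 against 95.03 to 157.

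Summed structural markers overlapped between the groups. The 4 endothelial markers on the panel (Pecam1, Cdh5, Kdr, Tie1) summed to 3516 to 3829 in the wild types and 3512 to 4117 in the knockouts. Pdgfrb, a receptor of mesenchymal cells, was 236 to 427 against 422 to 529, with WT control 2 overlapping. Podocyte and red cell markers were not analysed here.

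Some genes of dividing cells had higher values in the knockouts and in WT control 2. Of 20 tested cell cycle genes 15 were higher and 5 lower, the median log2 difference was 0.24, and 5 had an unadjusted p under 0.05 (4 higher, 1 lower). Over all genes 393 of 677 were higher, and 8.42% had an unadjusted p under 0.05. Mki67, a nuclear antigen of cycling cells, had 45.9, 200 and 60.7 in the wild types and 164, 192 and 331 in the knockouts, a log2 difference of 1.40 (SE 0.52, adjusted p = 0.575) and of 0.98 without WT control 1. Birc5, the mitotic protein survivin, had 35.3, 87.8 and 33.5 against 87.6, 87.7 and 123 (1.04). WT control 2 overlapped with the knockouts in both, while WT controls 1 and 3 lay below. Cenpf, a kinetochore protein, differed by 0.77 and Ccnd1, cyclin D1, by 0.66. Ube2c, a ubiquitin-conjugating enzyme of mitotic exit, had 187 to 380 in the wild types and 198 to 348 in the knockouts, a difference of 0.03. The members of the list therefore differed among themselves in size and direction.

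For 4 of the 6 tested nephron and tubule genes the 95% interval lay inside a 2-fold difference, and 0 of 6 passed the test. Egf, made in the distal convoluted tubule, had 19031, 30645 and 27619 in the wild types and 24099, 18390 and 25810 in the knockouts, a log2 difference of -0.17 (95% interval -0.83 to 0.50). Fbp1, the gluconeogenic enzyme of the proximal tubule, had 21865, 41106 and 32775 against 36744, 39656 and 41010 (0.34, interval -0.24 to 0.92, and 0.09 without WT control 1). WT control 1 was the lowest of the 6 for Fbp1, and the other 5 overlapped. Ghr, the growth hormone receptor, differed by -0.02 (-0.73 to 0.70), and Cdh1, E-cadherin, by 0.22.

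The intervals of Prlr and Epcam were wider. Prlr, the prolactin receptor, had 1585, 6468 and 2651 in the wild types and 9797, 6576 and 5456 in the knockouts (log2 difference 1.23, 95% interval -0.02 to 2.48, adjusted p = 0.606, and 0.77 without WT control 1). WT control 2 again lay within the knockout range. Epcam, an epithelial adhesion protein most abundant in the distal nephron, had 5986, 2482 and 3773 against 3029, 2582 and 2225 (-0.56, adjusted p = 0.669, and -0.24 without WT control 1).

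The kidney injury list had a median log2 difference of -0.04 over 12 tested genes, 0 of them with an unadjusted p under 0.05. Spp1, the matrix protein osteopontin, had 55189, 51035 and 42743 in the wild types and 40886, 50998 and 51626 in the knockouts, a difference of -0.05. The adhesion receptors Vcam1 and Icam1 differed by 0.35 and 0.08, and Ccl2, the monocyte attractant, by 0.14. The mean log2 level of the list, relative to the wild-type mean, was 0.44 in WT control 1 and -0.32 to -0.09 in the other 5 kidneys. For the immediate early and stress list it was 0.51 in WT control 1, with -0.51 to 0.07 in the others, and the median difference was -0.04. Egr1, a rapidly induced transcription factor, was 901 in KO control 1 against 120 to 256 in the other 5, and its log2 difference of 0.65 turned to -0.20 without that sample.

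Metabolic and growth signalling lists had small median differences. The metabolism list had 9 lower and 7 higher genes, with a median log2 difference of -0.04 that became 0.06 when scaled on the positive control probes. In the hypoxia and glycolysis list 15 of 21 tested genes were lower, against 284 of 677 over all genes. The median log2 difference was -0.12, and 1 of 21 had an unadjusted p under 0.05, against 8.42% of all genes. That gene was Aldoc, an aldolase, with 755, 256 and 393 in the wild types and 240, 267 and 188 in the knockouts (-0.88, and -0.46 without WT control 1). WT control 2 overlapped with the knockouts. Slc2a1, the glucose transporter GLUT1, had 1936, 1128 and 1568 against 1116, 1020 and 1025 (-0.52, adjusted p = 0.639, and -0.34 without WT control 1), without overlap. Hif1a, the oxygen-regulated factor, differed by -0.15. In the list of PI3K, MAPK and growth factor genes 22 of 32 were lower, against 284 of 677 over all genes. The list had a median of -0.09 and 0 of 32 at an unadjusted p under 0.05. Scaling on the positive control probes turned the median of that list to 0.02. It moved the median of all genes to 0.16, and median centring moved it to -0.03.

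Interferon-stimulated genes had a median log2 difference of 0.15, with 18 of 25 higher and 0 at an unadjusted p under 0.05. MHC class I genes had 0.23, with 10 of 14 higher and 1 of 14 at an unadjusted p under 0.05. Over all genes 393 of 677 were higher, and 8.42% had an unadjusted p under 0.05. The 6 complement genes had a median log2 difference of 0.20. The complement intervals lay inside a 2-fold difference for all 6 genes, among them C1qa (0.43, and 0.26 without WT control 1) and C1qb (0.35), chains of the C1q recognition protein. Of 11 epigenetic and chromatin genes, 11 had an interval inside 2-fold, with a median of -0.00.

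**Figure D5:**
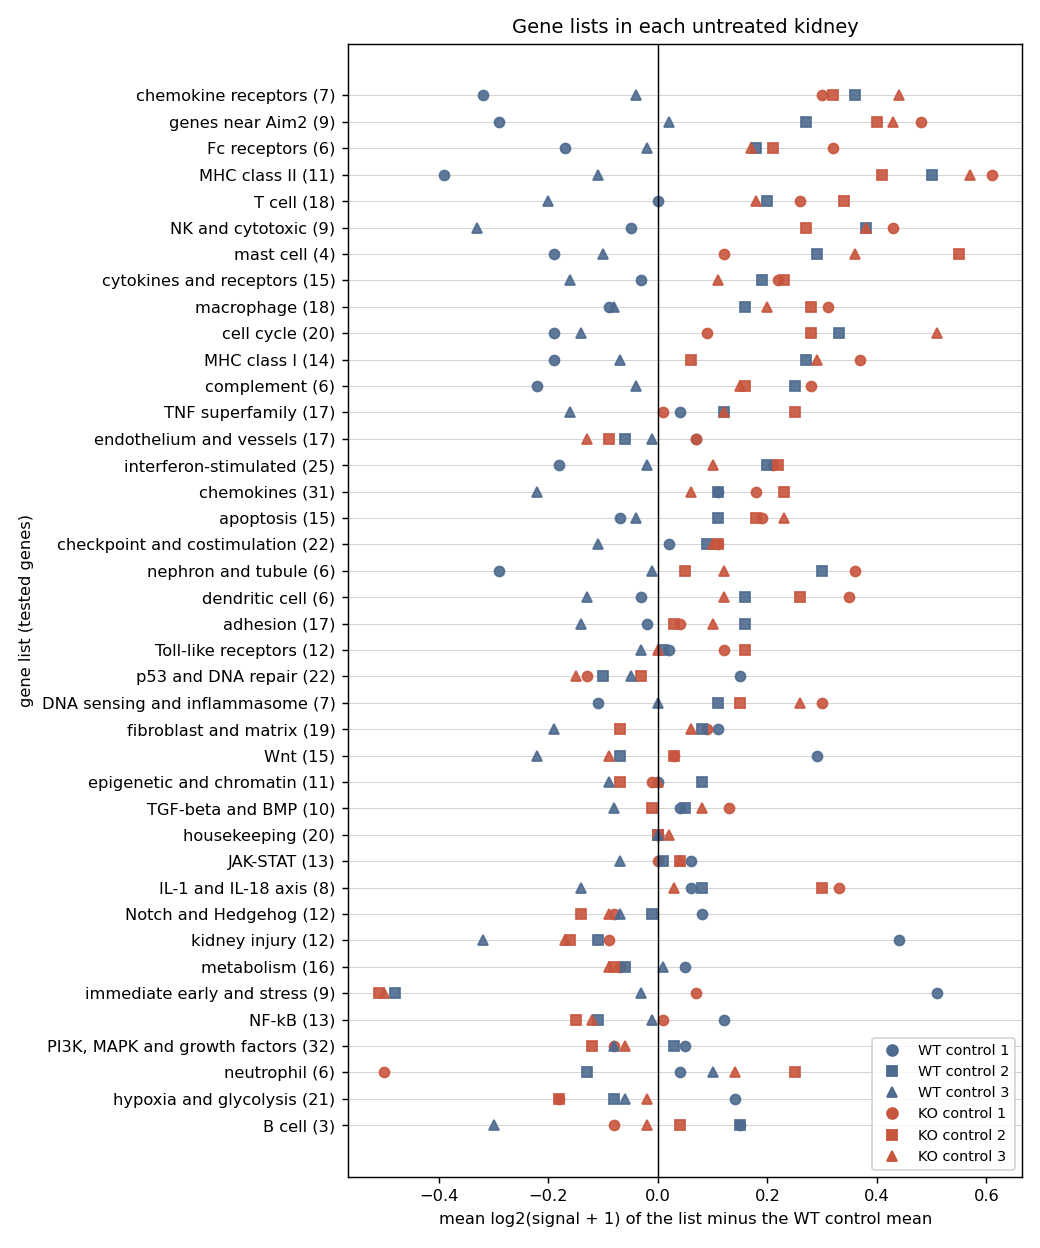
Mean log2(signal + 1) of each list minus the WT control mean (x axis) in each untreated kidney, with the number of tested genes in brackets and lists ordered by the median log2 difference between genotypes. The highest medians are those of chemokine receptors (0.52), genes near Aim2 (0.48), Fc receptors (0.44) and MHC class II (0.43), and in these lists WT control 2 (blue square) lies above the other wild types. Of the 7 chemokine receptors 5 were higher in the knockout, against 393 of 677 over all genes, and 2 were lower, Cxcr4 (-1.07) among them.

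Housekeeping genes, on which the authors scaled the samples, had intervals inside a 2-fold difference in 20 of 20, the largest difference being 0.33 for Tfrc, the transferrin receptor. The narrowest intervals over the panel belonged to signalling and housekeeping genes such as Ptpn11, a tyrosine phosphatase, Map3k7, the kinase TAK1, and Nbn, a DNA repair protein. Smap1 had 1204, 1248 and 1218 in the wild types and 1204, 1213 and 1250 in the knockouts, a log2 difference of -0.00 (95% interval -0.27 to 0.26).

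The spread within a genotype was larger among the wild types. The SD of log2 signal was larger in wild type in 460 genes (67.9%) and larger in knockout in 217, with medians of 0.26 and 0.17. Not all variable genes followed WT control 1. Bcat1, a branched-chain aminotransferase, had 1992 in WT control 1 and 2704 in KO control 1, against 339 to 512 in the other 4 kidneys. Ccl28, a mucosal chemokine, had 944, 60.8 and 417 in the wild types and 787, 272 and 233 in the knockouts. Their log2 differences were -0.10 and 0.35, with intervals of -1.78 to 1.59 and -1.71 to 2.40, and both changed sign when some single sample was left out.

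The 93 genes left untested were too low in the series as a whole. At the floor in all 6 untreated kidneys were 56 panel genes, among them the cytokines Il2, Il4, Il6, Il10, Il17a, Ifng, Csf2 and Csf3, the cytotoxic effectors Gzmb and Prf1, and the T cell genes Ctla4, Cd69 and Il2ra. Some of these 56, Il6 among them, were still tested, because the filter used all 12 samples. The floor was reached in all 3 samples by 75 genes in wild type and 74 in knockout. Wnt2b, a Wnt ligand, was at the floor in all knockouts and at 17.8 to 24.1 in the wild types, and it was not tested. A value at the floor is a limit of detection and not an absence.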

How the data were processed

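Total RNA was isolated on silica columns, as the labels' protocols state. The authors deposited a normalized signal per gene, with 1 probe per gene and rows of class endogenous, housekeeping, negative or positive control, per the file headers. Judged from the values, samples were scaled to a common housekeeping geometric mean (380.1, with 384.2 in KO control 3), and values under the mean of a sample's negative controls were set to it. Instrument, software, run and batch are not given in the sources used here. No count model was run, because the signal is not raw counts.

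A gene was tested where 3 or more of the 12 samples had a signal of 20 or more (677 of 770). Limma 3.58.1 in R 4.3.3 was fitted on log2(signal + 1) with 1 mean per group over the 12 samples, no covariate and eBayes with a variance trend (8 residual degrees of freedom). Two-sided p-values were adjusted by Benjamini-Hochberg over the 677 genes, and the step was tested on simulated data. Fold changes on this scale understate changes of low genes. The number of samples limits the precision. Groups came from the labels, and the design text gives 3 mice per group, so samples were taken as separate animals. Same-numbered samples were not treated as pairs. Correlations of their deviations were 0.107, -0.072 and 0.003, against -0.234 to 0.236 for samples of different number. With 3 samples per group these values cannot exclude a pairing.

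Named genes were the 12 higher and 12 lower non-overlapping genes with the smallest p, the 2 smallest p of each list, all members of 5 lists (DNA sensing, IL-1 and IL-18, near Aim2, nephron, housekeeping), the 5 most variable genes of each genotype, genes at the floor in 1 genotype alone, the 5 largest differences each way and the 6 narrowest intervals. The other genes that passed without WT control 2, and further members of the lists, were named after their values were seen. Members and lists were chosen with earlier results of these data known. Accessions matched RefSeq (GRCm38.p6) for 748 of 770 genes, for names and promoters.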

Additional observations from a re-analysis of the deposited data

How the results depend on the processing

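The count of genes passing the test stayed at 0 under every alternative except 1. These were pseudocounts of 0.5 and 10, no filter, a filter of 50 in 6 samples, median centring, quantile normalization, positive control scaling, scaling on the 10 least variable housekeeping genes, other variance models, only the 6 untreated samples, the replicate block (0 genes, smallest adjusted p = 0.604), a 2-fold minimum, and, added after seeing the data, only genes above the floor in all 6 samples. Leaving out each of the 12 samples in turn gave 0 to 22 genes, with 22 only without WT control 2, a median log2 difference of 0.04 to 0.10, and 353 to 501 genes with an interval inside 2-fold. The smallest adjusted p over the alternatives was 0.0112 to 0.992. The median log2 difference of all genes moved from 0.056 to -0.031 with median centring and to 0.164 with positive control scaling. Genes with an interval inside 2-fold numbered 340 with the stricter filter, which tests 479 genes, and 341 with positive control scaling. Of 134 tested named genes, 23 changed sign in some scaling and 26 when some sample was left out. The cause was not tested. The 3 animals per genotype, the floor and 1 probe per gene limit what could be detected, and strain background, run and genotype cannot be told apart here.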
